A study of Mus musculus with 6 samples.

Results

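The genes described here are 34 genes of protein folding in the endoplasmic reticulum (ER) and of the unfolded protein response, measured in mouse germinal vesicle (GV) oocytes, the grown oocytes still held in meiotic prophase. They are a list of gene names: chaperones, disulphide enzymes, stress sensors and genes of ER-associated degradation. All 34 were found among the 25353 genes of the deposited table, and all 34 passed the filter on low values that left 18762 genes for testing. The series compares oocytes of wild-type (WT) C57BL/6J mice with oocytes labelled knockout (KO) for a mitofusin, a GTPase of the outer mitochondrial membrane that fuses mitochondria. There were 3 WT and 3 KO libraries, each a pool of 5 oocytes isolated by enzymatic digestion of ovaries. The series title and design name the KO as Mfn2-/-, but per sample the genotype entry and the protocols give Mfn1-/-, and so the libraries are called "labelled KO" or KO. The mice are described as 8 weeks old in the design and the treatment protocol, while a separate age entry reads P1. No Cre driver, floxed allele or drug treatment is given in the labels, and no group beyond WT and KO is part of the series.

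Proteins that enter the secretory pathway fold inside the ER, where the chaperone BiP binds exposed hydrophobic stretches, lectin chaperones hold glycoproteins, and protein disulphide isomerases make and reshuffle disulphide bonds. When unfolded protein builds up, the sensors IRE1 (Ern1), ATF6 and PERK start the unfolded protein response: IRE1 splices Xbp1 mRNA, Golgi proteases cut ATF6 free, and the resulting transcription factors raise the transcription of chaperone and degradation genes through ER stress response elements (ERSE) in their promoters. Proteins that do not fold are sent back to the cytosol and degraded. A growing oocyte secretes the glycoproteins of its zona pellucida through this machinery, and in many cell types mitofusin-2 is known also for tethering mitochondria to the ER.

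Promoter elements of the unfolded protein response were read from RefSeq promoter sequences (GRCm38.p6), in the 250 bases before each start, for the 30 members with an entry. Atf6, Hyou1, Manf and Derl1 had none. The ERSE was searched on both strands as CCAAT, then 9 bases of any kind, then CCACG, and 9 of the 30 members held it: Hspa5, Hsp90b1, Dnajc3, Pdia6, Calr, Canx, Creld2, Syvn1 and Derl3. Among all 27025 genes with a promoter sequence, 35 held it (0.13%). ERSE-II, searched as ATTGG, 1 base of any kind and CCACG, was found in Herpud1 alone of the members and in 10 genes in all (0.037%), and TGACGTGG was found in 0 of the 30 members and in 163 genes (0.603%). A match is a description of the letters and not evidence of binding. The lack of an exact match in these 250 bases does not show that a gene has no such element. The windows below belong to members whose values are compared further on, written 5′ to 3′ on the strand of the gene, with the matched element in capitals (CGTGG to ATTGG where the match lies on the opposite strand).
Hspa5, chr2:34772015-34772053, + strand: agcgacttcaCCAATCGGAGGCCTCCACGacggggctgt
Pdia6, chr12:17266481-17266519, + strand: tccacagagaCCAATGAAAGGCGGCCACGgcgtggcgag
Creld2, chr15:88819510-88819548, + strand: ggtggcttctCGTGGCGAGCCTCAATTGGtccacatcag
Dnajc3, chr14:118937817-118937855, + strand: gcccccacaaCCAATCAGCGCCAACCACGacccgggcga
Calr, chr8:84847065-84847103, - strand: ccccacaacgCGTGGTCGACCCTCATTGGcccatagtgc
Canx, chr11:50325790-50325828, - strand: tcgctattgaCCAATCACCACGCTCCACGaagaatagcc
Herpud1 (ERSE-II), chr8:94386367-94386397, + strand: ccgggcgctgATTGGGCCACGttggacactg
The match in Hspa5 lies 65 to 47 bases before the start, that in Pdia6 98 to 80 and that in Creld2 126 to 108. Hsp90b1 has 2 matches, between 212 and 89 bases before its start.

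Between 6450191 and 7992598 reads were counted in genes per library. Mfn2 checks the labels: it stood at 25.5, 38.1 and 32.3 normalized read counts in the WT libraries (values are listed in the order of the replicate numbers here and below) and at 5.25, 5.28 and 4.50 in KO (5 reads in each), a log2 fold change of -2.44 (SE 0.38, adjusted p = 0.00487 in limma, the test used throughout unless another is named), while Mfn1 averaged 340.4 ± 36.3 (SD, n = 3) in WT against 386 ± 10.3 in KO (adjusted p = 0.482). Nothing in the labels says that the pools came from separate mice, so the p-values measure only the spread between these pools, which may be technical. In pooled cells, fewer cells of a type and less RNA per cell cannot be told apart. The 10 oocyte markers (Gdf9, Bmp15, the zona genes and others) summed to 169660 to 199740 in WT and 133020 to 171880 in KO, none at 0. WT replicate 1 stood apart in markers of other ovarian cells. The 5 theca and luteal markers in the table summed to 1905 there, 18.6 and 322 in the other WT libraries and 10.5 to 54.0 in KO. The 7 stromal markers summed to 160, 32.5 and 27.7 in WT and 8.99 to 13.7 in KO. The 7 immune markers summed to 83.2, 23.2 and 48.0 in WT and 12.7 to 17.9 in KO. In these last lists every WT library was above every KO library, so leaving out WT replicate 1 does not remove the difference. Limma called 2 of 4 theca and luteal markers tested lower in KO, 1 of 3 stromal and 0 of 2 immune. Endothelial and surface epithelium sums overlapped between the groups. The granulosa list summed to 2731 to 3645 with no gap between the groups, a sum carried mostly by Serpine2 (2105 to 2967). Some other granulosa markers were highest in WT replicate 1, among them Inha at 171 against 28.4 to 101 elsewhere, Hsd17b1 at 54.3 against 4.65 to 13.7 and Inhba at 23.3 against 1.86 to 9.51. The list did not do so as a whole: Amh, Cyp19a1, Fshr, Nr5a2 and Serpine2 were highest in other libraries. Fshr and Serpine2 were lowest in WT replicate 1. KO replicate 1 stood apart from KO replicates 2 and 3 on the second principal component (-39.3 against 9.62 and 32.8).

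No member passed the test between KO and WT: 0 of 34 were called by limma at an adjusted p under 0.05, where 3.28% of all genes tested were called (351 higher and 264 lower in KO). At an unadjusted p under 0.05 there were 11 members, 8 lower and 3 higher, or 32.4% beside 18.0% of all genes tested. Among genes with a mean of at least 50 these shares were 34.5% of members and 25.7% of all genes. The median log2 fold change of the members was -0.10, beside -0.01 for all genes, and 21 members lay below 0 and 13 above. In 14 members the WT and KO libraries did not overlap, which is 41.2% beside 23.2% of all genes. KO was the lower group in 8 of them (beside 11.7% of all genes) and the higher group in 6 (beside 11.5%). Most members are abundant, and among genes with a mean of at least 50 the groups did not overlap in 41.4% of 29 members and in 30.5% of all genes. Tests on the whole reads recovered from the table called a few members: edgeR called Atf6 and P4hb lower and Edem3 higher (3 of 32 members it tested, beside 6.03% of genes, 2.58% lower and 3.45% higher), and DESeq2 called Atf6, Dnajc3, P4hb and Calr lower (4 of 32, beside 3.13% of genes lower). In limma, a filter of 5 CPM (CPM gives reads as a share of the library total) in the higher group gave Atf6, P4hb and Calr lower and Edem3 higher (4 of 30, beside 8.05% of genes, 3.6% lower and 4.45% higher), and no filter gave the same 3 lower (beside 1.3% of genes lower). Calls lower also came for P4hb with a pseudocount of 5 (beside 1.54% of genes lower) or without KO replicate 3 (1.01%), and for Dnajc3 with trends on GC content and length removed (1.2%). In 28 of 34 members (82.4%, beside 52.1% of all genes) the 95% interval of the difference lay within a 2-fold change either way. Among genes with a mean of at least 50 these shares were close, 93.1% of the 29 members and 92.4% of all genes. The forest plot shows these intervals by role.

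**Figure D1:**
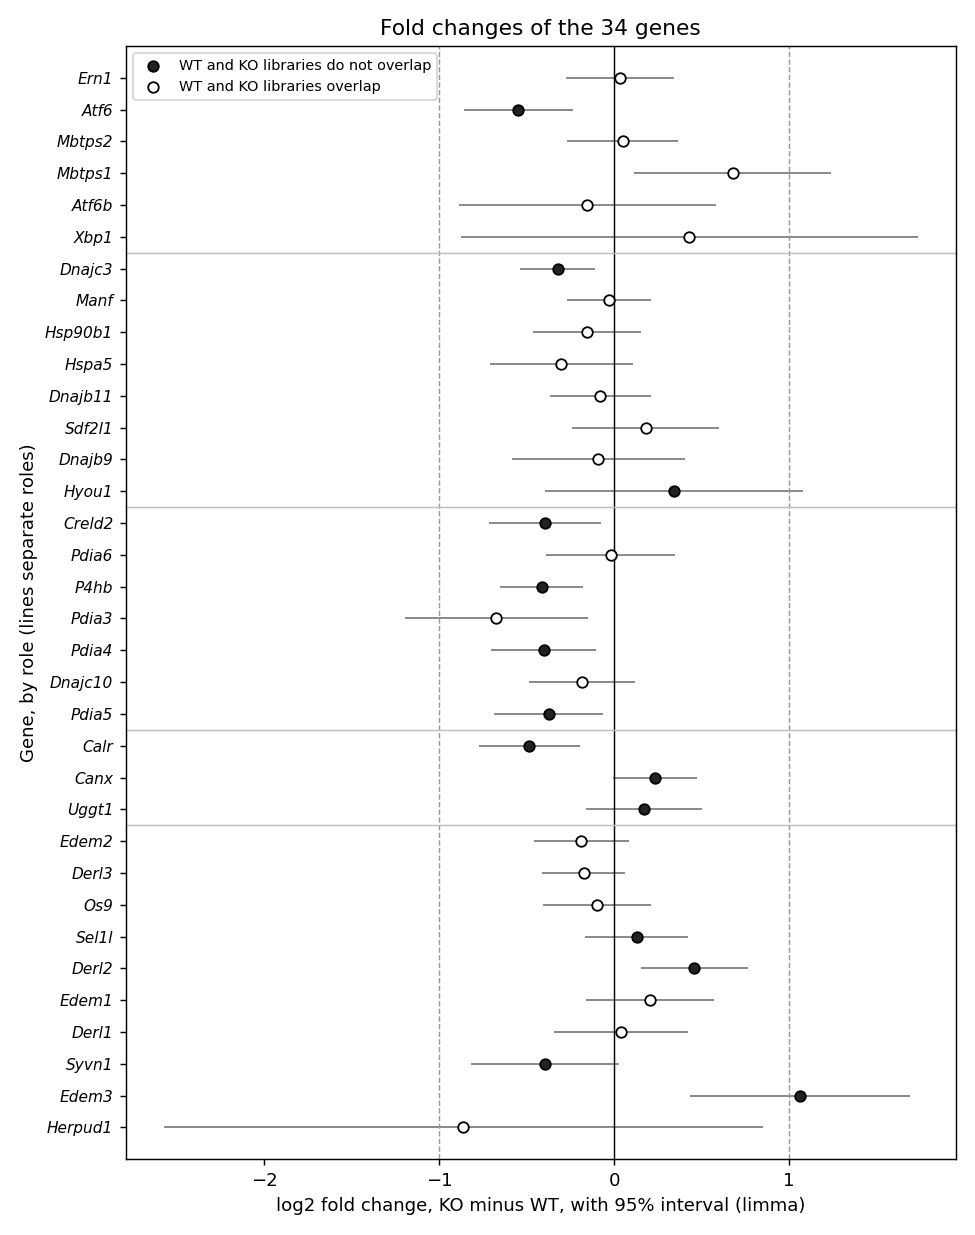
Log2 fold change (KO minus WT) of each of the 34 genes with its 95% interval from limma, 3 libraries a group, ordered by role with lines between roles (sensors, BiP and GRP94 with cofactors, disulphide enzymes, lectin cycle, degradation). Filled points are genes whose WT and KO libraries do not overlap, and dashed lines mark a 2-fold change. All 7 disulphide enzymes lie below 0 in this fit, Pdia6 at -0.02 and of either sign in others, and Edem3 has the highest value, 1.06.

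The sensor genes showed no shared direction: 4 of 6 had values above 0 and 2 below, with a median log2 fold change of 0.04 (-0.07 without KO replicate 1). Ern1, which encodes the kinase and RNase IRE1, was the most abundant of them, at 908, 928 and 685 in WT and 1057, 750.1 and 781 in KO. Its groups overlapped, and the 95% interval of its log2 fold change, -0.28 to 0.34, lies within a 2-fold change either way. The transcription factor gene Xbp1, whose mRNA IRE1 splices, was near the floor, with 16, 6 and 3 reads in WT and 9, 4 and 22 in KO, and its interval ran from -0.88 to 1.74. Spliced and unspliced Xbp1 are not separated in counts per gene.

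Atf6 (chr1:170704674-170867771), the gene of the membrane-bound transcription factor, was the member closest to the threshold. Normalized counts of 325, 273 and 238 in WT stood against 183, 190.2 and 194 in KO. Every KO library lay below every WT library, and the KO values were close together (189 ± 5.81 against 279 ± 43.6, SD, n = 3). On the log2 scale KO minus WT was -0.55 (SE 0.15, 95% interval -0.86 to -0.23, adjusted p = 0.0518). edgeR gave an adjusted p of 0.0413 and DESeq2 one of 0.0298. WT replicate 1, the library with the highest theca and stromal marker sums, had the highest Atf6 value. Without it the log2 fold change was -0.43 (adjusted p = 0.222), and without KO replicate 1 it was -0.52 (adjusted p = 0.0551). The part of those cells in the Atf6 value was not tested.

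The proteases that release ATF6 differed from each other in level. Mbtps1 (chr8:119508156-119558735), the site-1 protease, had counts of 45.5, 69.7 and 36.0 in WT and 88.2, 59.2 and 91.7 in KO. KO replicate 2 lay below WT replicate 2, so the groups overlapped. For Mbtps1 the log2 fold change was 0.68 (SE 0.27, adjusted p = 0.183). Mbtps2, the site-2 protease, averaged 207 ± 12.4 in WT against 216 ± 30.1 in KO (SD, n = 3), and Atf6b, the paralogue of Atf6, 20.7 ± 2.60 against 18.9 ± 5.34. Neither of these separated the groups.

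Among BiP, GRP94 and their cofactors, 6 of 8 had values below 0 and 2 above, with a median log2 fold change of -0.09 (0.01 without KO replicate 1), and none passed. Hspa5, which encodes BiP and is the usual reporter of ER stress, was at 1826, 1134 and 1586 in WT and 833, 1377 and 1532 in KO. The lowest value of all was KO replicate 1, and the other KO libraries lay inside the WT range. The difference was -0.30 on the log2 scale (SE 0.19, 95% interval -0.71 to 0.11, adjusted p = 0.452), and -0.03 without KO replicate 1. Hsp90b1, the gene of GRP94, had the same layout, with 1756, 1472 and 1646 in WT and 1094, 1622 and 1740.1 in KO. Its log2 fold change was -0.15 (95% interval -0.46 to 0.16), and 0.05 without KO replicate 1. The upper limit for a rise depended on that library: without KO replicate 1 it went from 0.11 to 0.27 for Hspa5 and from 0.16 to 0.27 for Hsp90b1, on the log2 scale.

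Dnajc3 (chr14:118937976-118981697), a J-domain cofactor of BiP known also as an inhibitor of PERK, was 1 of 2 members of this role with separated groups, Hyou1 being the other. It stood at 2000.5, 1994 and 2251 in WT and 1696, 1625 and 1664 in KO, with every KO library lower. Its log2 fold change was -0.32 (SE 0.10, adjusted p = 0.0889). Under DESeq2 the adjusted p was 0.0304. Unlike Hspa5, it did not rest on KO replicate 1, without which its log2 fold change was -0.34 (adjusted p = 0.0508).

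Of the other members of this role, Manf, a secreted cofactor of BiP, averaged 1688 ± 63.7 in WT against 1665 ± 240.0 in KO (SD, n = 3), with a 95% interval of -0.27 to 0.21. Dnajb11 was at 742 ± 67.9 and 708 ± 129, Dnajb9 at 57.3 ± 8.98 and 53.8 ± 8.82, and Sdf2l1 at 90.7 ± 6.14 and 105 ± 24, all with overlapping groups. Hyou1, the nucleotide exchange factor GRP170, was low, at 16.6, 13.9 and 15.7 in WT and 25.2, 18.0 and 17.1 in KO. The lowest KO value was only just above the highest WT value, and the log2 fold change was 0.34 with a 95% interval of -0.40 to 1.08.

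The disulphide enzymes were the role with the lowest median log2 fold change, -0.40: 7 of 7 lay below 0, 4 had separated groups with KO lower, and 5 had an unadjusted p under 0.05, although 0 passed the adjusted test. Over all genes, 51.3% lay below 0, 11.7% had separated groups with KO lower, and 8.83% were lower at an unadjusted p under 0.05. All 7 enzymes had a mean of at least 50. Of 8979 such genes, 53.5% lay below 0, 1442 had separated groups with KO lower, and 1191 were lower at an unadjusted p under 0.05. The direction was not shared by 22 other ER folding enzymes, where 12 lay above 0 and 10 below (median 0.07). Without KO replicate 1 the median of the disulphide enzymes was -0.27, with 6 of 7 below 0. Pdia6 alone among these 7 turned sign in any of the 21 other fits. P4hb (chr11:120560298-120573253), the founding protein disulphide isomerase, was at 1485, 1366 and 1264 in WT and 975, 969 and 1148 in KO. Every KO library was lower than every WT library, and the means were 1372 ± 110.5 and 1030.4 ± 101 (SD, n = 3). Its log2 fold change was -0.41 (SE 0.11, 95% interval -0.65 to -0.18, adjusted p = 0.0521). edgeR (0.0427), DESeq2 (0.0157) and 4 of the limma alternatives gave an adjusted p under 0.05. Without WT replicate 1 the value was -0.36 (adjusted p = 0.203) and without KO replicate 3 it was -0.49 (adjusted p = 0.0398).

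Pdia3 (chr2:121413775-121438687), the isomerase that works with calreticulin and calnexin, had the largest difference of this role and the widest spread. Its counts were 1034, 660.2 and 824 in WT and 296, 619 and 754 in KO. KO replicate 3 lay inside the WT range, and KO replicate 1 lay far below the other KO libraries. The log2 fold change of -0.67 (SE 0.25, adjusted p = 0.15) was -0.27 without KO replicate 1 (adjusted p = 0.335). Pdia4 (chr6:47796141-47813430) did separate the groups, with 450.2, 436 and 583 in WT against 324, 369.8 and 413 in KO. Pdia4 had a log2 fold change of -0.40 (SE 0.14, adjusted p = 0.133). Pdia5 (chr16:35397313-35490873) was at 334, 246 and 293 in WT and 205, 225 and 239 in KO, again with every KO library lower. Pdia5 had a log2 fold change of -0.37 (SE 0.15, adjusted p = 0.184).

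Creld2 (chr15:88819646-88826681), a cysteine-rich ER protein known as an ER stress target, was at 2278, 2098 and 1936 in WT and 1162, 1819 and 1924 in KO. The groups did not overlap, but KO replicate 3 was just under the lowest WT library and KO replicate 1 was far below. Creld2 had a log2 fold change of -0.40 (SE 0.15, adjusted p = 0.175), and -0.17 without KO replicate 1. Dnajc10, a reductase with a J domain, averaged 304 ± 35.5 in WT and 268 ± 33.0 in KO. Pdia6, which is known to attenuate IRE1 signalling, had nearly equal means, 1972 ± 262 and 2002 ± 646 (SD, n = 3), and its KO libraries spanned 1411, 1903 and 2692. That spread takes in the whole WT range. Pdia6 had a log2 fold change of -0.02, and 0.21 without KO replicate 1.

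**Figure D2:**
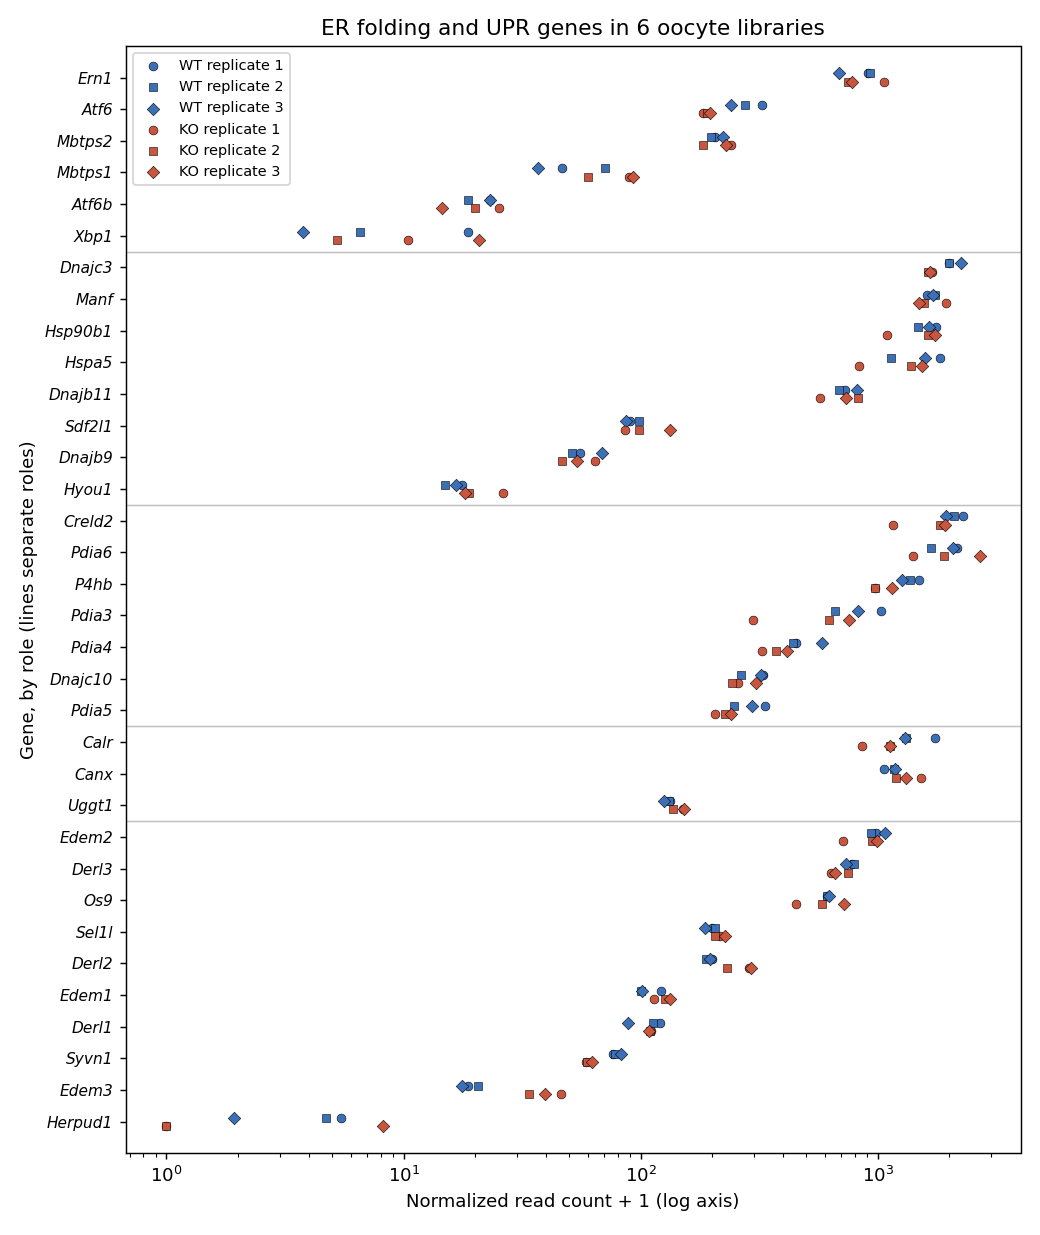
Normalized read count plus 1 (log axis) of each of the 34 genes in each of the 6 libraries, WT in blue and KO in red, ordered by role with lines between roles. Atf6, P4hb, Calr and Dnajc3 have all red marks left of all blue ones, Edem3 and Derl2 the reverse, and the red circle of KO replicate 1 is far left in Pdia3, Hspa5, Creld2 and Hsp90b1.

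The lectin chaperone cycle keeps glycoproteins in the ER until they are folded, and its members did not share a direction. Calr (chr8:84841850-84846934), the soluble lectin calreticulin and a store of ER calcium, was at 1747, 1311 and 1301 in WT and 857, 1124 and 1129 in KO. All KO libraries were lower, with means of 1453 ± 254 and 1037 ± 155 (SD, n = 3). This gave a log2 fold change of -0.48 (SE 0.14, 95% interval -0.77 to -0.19, adjusted p = 0.0623 in limma, 0.0538 in edgeR and 0.0205 in DESeq2). It was smaller without the highest WT or the lowest KO library, -0.34 without WT replicate 1 (adjusted p = 0.255) and -0.35 without KO replicate 1 (adjusted p = 0.101).

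Canx (chr11:50293961-50325673), the membrane-bound lectin calnexin, lay the other way, at 1064, 1168 and 1179 in WT and 1518, 1188 and 1316 in KO. Its groups did not overlap, although KO replicate 2 was only just above the highest WT library. The log2 fold change was 0.23 (SE 0.11, 95% interval -0.01 to 0.47, adjusted p = 0.297). It was 0.14 without KO replicate 1 and 0.09 with GC and length trends removed. Uggt1, which re-glucosylates unfolded glycoproteins so that the lectins bind them again, averaged 129 ± 4.0 in WT against 146 ± 8.91 in KO (SD, n = 3), also with separated groups, and a log2 fold change of 0.17 (adjusted p = 0.636). The intervals of Calr and Canx do not overlap each other, but the difference between these genes was not tested.

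In ER-associated degradation, 5 of 10 members had values below 0 and 5 above, with a median log2 fold change of -0.03 (0.05 without KO replicate 1). Edem3 (chr1:151755371-151822051), a mannosidase-like protein that trims glycans of misfolded glycoproteins, had the largest difference of all 34 members. Its counts were 17.7, 19.5 and 16.6 in WT and 45.2, 32.8 and 38.7 in KO, from 16, 21, 18, 43, 31 and 43 reads. The KO mean of 38.9 ± 6.21 lay over the WT mean of 18.0 ± 1.47 with no overlap (SD, n = 3). On the log2 scale the difference was 1.06 (SE 0.30, 95% interval 0.43 to 1.69, adjusted p = 0.0601 in limma, 0.0396 in edgeR and 0.0846 in DESeq2). It was 0.95 without KO replicate 1 and 1.06 without WT replicate 1 (adjusted p of 0.124 and 0.128). Its relatives Edem1 (107 ± 12 and 123 ± 9.71) and Edem2 (996 ± 71.3 and 883 ± 152) had overlapping groups.

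Derl2 (chr11:71007164-71019841), a membrane protein of the channel through which substrates leave the ER, was at 199.6, 188 and 195 in WT and 286, 229 and 290.5 in KO. Every KO library was higher, and the log2 fold change was 0.46 (SE 0.14, adjusted p = 0.0925). Mis12 overlaps the Derl2 locus on the other strand, and the libraries keep no strand. No window of the longest Derl2 transcript was shared with another gene (0% of 172 windows), Mis12 included. Other parts of the locus were not checked in this way. Mis12 itself was at 509 ± 51.3 and 505 ± 109 (SD, n = 3). The paralogues differed from Derl2 in layout: Derl1 was at 106 ± 16.6 and 108 ± 1.19, and Derl3 at 766 ± 30.9 in WT and 680.4 ± 58.5 in KO, both with overlapping groups.

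The ubiquitin ligase of this pathway, HRD1, is encoded by Syvn1 and held by the adaptor Sel1l. Syvn1 averaged 78.0 ± 3.00 in WT against 59.0 ± 1.86 in KO (SD, n = 3), with separated groups, a log2 fold change of -0.40 and an adjusted p of 0.316. Sel1l lay the other way with a smaller gap, 197 ± 9.84 and 215 ± 9.93. Os9, a lectin that hands glycoproteins to this ligase, was even across WT (611, 608 and 621) and spread in KO (449.6, 578 and 721). Herpud1, a partner of HRD1 that ER stress is known to raise strongly, was barely detected, with 4, 4 and 1 reads in WT and 0, 0 and 8 in KO. With 0 reads seen, up to 3 reads (2.70 to 3.33 normalized counts) remain possible, so the WT level was near or under what this depth detects.

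Levels were then compared between genes as normalized counts per kb of the longest transcript, averaged over all 6 libraries. Creld2 was highest at 1369 per kb, above 97.2% of the genes tested, followed by Pdia6 at 913, Manf at 746, Calr at 570, Derl3 at 547 and Hsp90b1 at 483. The order at the top is not fixed, since Manf was above Creld2 and Pdia6 in KO replicate 1 (863, 850.5 and 649 per kb) and above Pdia6 in WT replicate 2. Hspa5, at 376 per kb, was the ninth member in this order and stood above 90.3% of genes. The neighbours P4hb (420), Edem2 (410), Hspa5 (376) and Dnajc3 (364) overlapped in their libraries, as did Calr with Derl3, so their order is not fixed by these data. Canx (289), Dnajb11 (288), Pdia3 (252) and Os9 (228) came next.

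The sensor genes all lay below Hspa5 and Hsp90b1 in level. Ern1 was at 123 per kb, above 79.1% of genes, Atf6 at 32.3 (60.0%), Atf6b at 7.71 and Xbp1 at 4.66 (30.4%). Members known as strongly stress-inducible stood at opposite ends of the order: Creld2, Manf and Pdia6 were the top members, while Hyou1 (3.61 per kb) and Herpud1 (1.39) were the bottom ones. Derl3 was above Derl2 (52.9) and Derl1 (33.8) in every library, and Edem2 was above Edem1 (18.9) and Edem3 (4.49). Canx and Calr likewise did not overlap in level. These are poly(A)-primed, amplified libraries, and transcript lengths are those of GENCODE M21, so a level per kb also depends on how well the transcript end and isoform of each gene are captured.

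**Figure D3:**
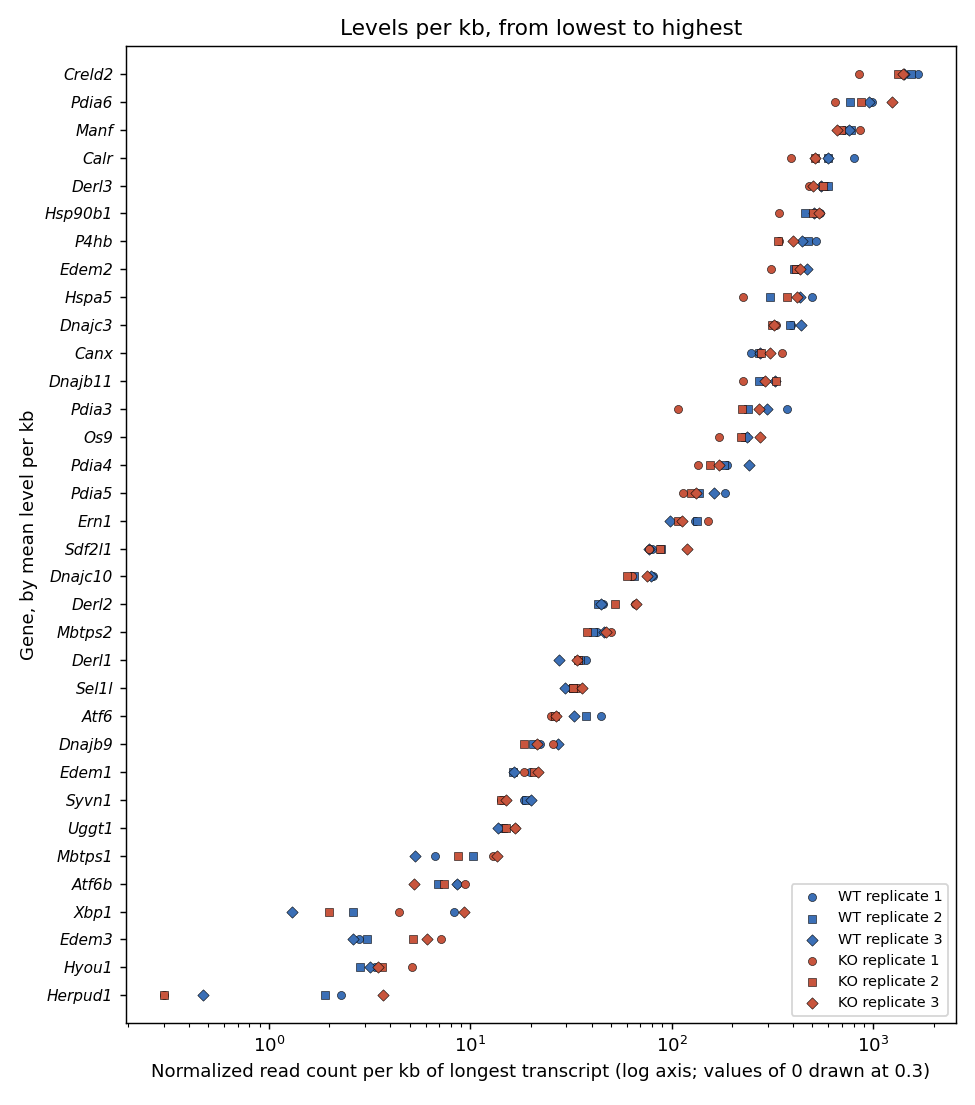
Normalized read count per kb of the longest transcript (log axis) for the 34 genes in each library, ordered by the mean over 6 libraries, WT in blue and KO in red, with values of 0 drawn at 0.3. Creld2, Pdia6 and Manf stand at the top (1369, 913 and 746 per kb) and Hyou1 and Herpud1 at the bottom (3.61 and 1.39), while most neighbours overlap in their libraries.

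The members did not move alike in the 3 KO libraries, a pattern picked out after the values were seen and given without a test. KO replicate 1 was the lowest of the 6 libraries in 15 of 34 members (44.1%), beside 19.9% of all genes tested. Among genes with a mean of at least 50 it was lowest in 15 of 29 members (51.7%) and in 24.8% of all genes. At the other end, WT replicate 1 was the highest library in 10 of those 29 members (34.5%) and in 15.6% of such genes. Atf6, P4hb, Calr, Pdia3, Pdia5, Creld2 and Hspa5 were among these 10. KO replicate 3 was the highest library in 8 of the 29 members (27.6%) and in 17.6% of such genes. Relative to the mean of KO replicates 2 and 3, the log2 value of KO replicate 1 was -1.21 for Pdia3, -0.80 for Hspa5, -0.70 for Pdia6, -0.69 for Creld2, -0.62 for Hsp90b1 and -0.53 for Os9. A value below -0.5 was found in 6 of 29 members at a mean of at least 50 (20.7%) and in 8.66% of all such genes. The reverse was seen in Ern1 (0.46), Manf (0.34) and Canx (0.28), which were highest in KO replicate 1.

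The 9 members with an ERSE match had the lower median in that library. Their median difference from the WT mean, on the log2 scale, was -0.47 in KO replicate 1, -0.11 in KO replicate 2 and -0.13 in KO replicate 3. The members without a match or without a promoter sequence had medians of 0.08, -0.11 and 0.02. These groups differ in level: all 9 had a mean of at least 50, while Edem3, Hyou1, Xbp1, Atf6b and Herpud1 among the others did not. In KO replicate 1 those low genes were at 1.29, 0.68, 0.43, 0.22 and -1.87. Members without a match at a mean of at least 50 ran there from -1.48 for Pdia3 to 0.85 for Mbtps1. No comparison at like level was made. Over all KO libraries, 8 of the 9 had a log2 fold change below 0, with a median of -0.30, and Canx was the exception. Without KO replicate 1 this was 6 of 9 with a median of -0.12, and without WT replicate 1 it was 7 of 9 with a median of -0.16. Of the 21 members with a promoter and no match, 11 were below 0, with a median of -0.08. Of the windows printed above, those of Hspa5, Pdia6, Creld2 and Calr belong to genes lowest in KO replicate 1, although Pdia6 was highest in KO replicate 3. In Dnajc3, Calr and Creld2 every KO library was below every WT library, and in Canx every KO library was above. Herpud1 was near the floor. The windows were set beside these values after the values were seen.

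**Figure D4:**
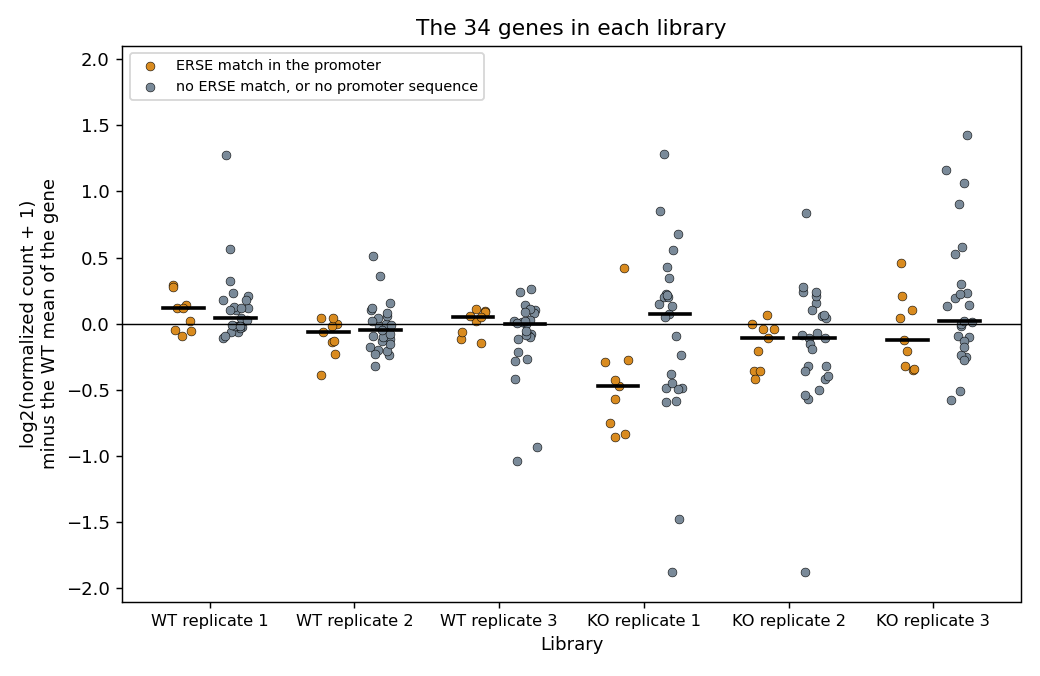
Each point is 1 of the 34 genes in 1 library, as log2(normalized count + 1) minus the mean of that gene in WT, with the median as a bar, orange for the 9 genes with an ERSE match and grey for the others. The orange median is -0.47 in KO replicate 1 and -0.11 and -0.13 in the other KO libraries, while the grey medians are 0.08, -0.11 and 0.02.

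Several abundant oocyte transcripts were low in the same library, where the summed oocyte markers were also lowest, at 133020. Zp3, the zona pellucida glycoprotein, was at 36402, 29186 and 31130 in WT and 12413, 22305 and 29703 in KO. Nlrp5, a maternal-effect gene, was at 14593, 9445 and 12684 in WT and 4413, 8332 and 8984 in KO. Every KO library of Nlrp5 was below every WT library, and limma called it lower (log2 fold change -0.80, adjusted p = 0.0458), though DESeq2 did not (0.165). It was the only 1 of the 10 oocyte markers called. At an unadjusted p under 0.05, 6 of the 10 were lower, beside 1191 of 8979 genes with a mean of at least 50. In 4 every KO library lay below every WT library, beside 1442 of those genes. The median log2 fold change of the 10 was -0.28. Gdf9, a secreted oocyte growth factor, was at 27825, 19051 and 30042 in WT and 21700, 29928 and 30600 in KO, with KO replicate 1 inside the WT range. Of the other oocyte markers, Zp1, Zp2 and Figla were lowest in KO replicate 1, while Bmp15 lay inside the WT range there. Ooep and Dppa3 were higher in KO replicate 1 than in KO replicates 2 and 3, and Oosp1 was highest there, at 16790. Whether the differences in oocyte transcripts have a part in those of the ER genes was not tested. Without KO replicate 1, the median log2 fold change of the members was -0.04, and Hsp90b1, Dnajb11, Os9, Pdia6, Ern1 and Mbtps2 changed sign.

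The rest of the pathway was read from 5 lists of other genes, 112 of them tested, of which 3 rose and 1 fell (3.57%, near the 3.28% of all genes tested). In the PERK arm, which slows translation under ER stress, 1 of 12 genes passed (8.33%, where 3.28% of all genes did). Ppp1r15a, a phosphatase subunit that reverses the PERK signal, fell from 593, 633 and 765 in WT to 369, 437 and 502 in KO, with every KO library lower. The log2 fold change was -0.61 (SE 0.14, adjusted p = 0.0259), and the call was lost without WT replicate 2 (0.0803), WT replicate 3 (0.142) or KO replicate 2 (0.0652). With the genes tested kept as in the full set, it was lost also without WT replicate 1 (0.0684) or KO replicate 3 (0.057). Ppp1r15b lay the other way without passing, at 41.0, 60.4 and 65.6 in WT and 101, 88.7 and 79.1 in KO. Its groups did not overlap, and its log2 fold change was 0.70 (SE 0.23, adjusted p = 0.103). The transcription factors downstream of PERK did not pass: Atf4 was at 909.8 ± 51.4 and 1091 ± 118 (log2 fold change 0.26, adjusted p = 0.238) and Ddit3, the gene of CHOP, at 1116 ± 114 and 961 ± 46.9 (-0.21, adjusted p = 0.332). The groups did not overlap in either, with KO higher in Atf4 and lower in Ddit3. In this list 5 of 12 genes had separated groups (41.7%, beside 23.2% of all genes). PERK itself, Eif2ak3, was at 28.3 ± 7.00 and 30.6 ± 6.49 (SD, n = 3).

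Among 26 other genes of ER-associated degradation, 2 rose and 0 fell (7.69%, beside the same 3.28%). March6, a ubiquitin ligase of the ER membrane, rose from 560, 509.6 and 525 in WT to 1022, 847 and 775 in KO. March6 had a log2 fold change of 0.72 (SE 0.12, adjusted p = 0.0063), and the highest adjusted p on leaving out 1 library with the filter applied again was 0.0457, without WT replicate 3. Fam8a1, a partner of the HRD1 ligase, rose from 217, 263 and 247 to 601, 366 and 334 (log2 fold change 0.79, SE 0.18, adjusted p = 0.0277). The call of Fam8a1 was lost on leaving out WT replicate 1 (0.101), 2 (0.0734) or 3 (0.107), and without KO replicate 3 where the genes tested were kept (0.0599). It was also lost with GC and length trends removed (0.094).

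Of 34 genes for entry into the ER and N-glycosylation, 1 rose (2.94%, below the 3.28% of all genes). Spcs3, a subunit of the signal peptidase that removes signal sequences, went from 35.5, 49.3 and 32.3 to 70.4, 75.0 and 132 (log2 fold change 1.19, SE 0.27, adjusted p = 0.0254). That call was lost without WT replicate 1 (0.075), WT replicate 3 (0.120) or KO replicate 3 (0.102), and with GC and length trends removed (0.116). None of 22 other folding enzymes passed, where Cnpy2 (456 ± 23.6 and 334 ± 70.4, log2 fold change -0.47, adjusted p = 0.0999) and Sil1, an exchange factor of BiP (643 ± 94.8 and 821 ± 56.7, 0.36, adjusted p = 0.124), had the smallest p. None of 18 genes of COPII vesicles, which carry folded cargo to the Golgi, passed either. Sec24c (97.7 ± 0.156 and 128 ± 15.2, adjusted p = 0.254) and Sec24d (32.6 ± 3.57 and 48.5 ± 13.1, adjusted p = 0.321), cargo adaptors of the coat, came closest (SD, n = 3).

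Some counts carry limits from the genes' positions. Stretches of 75 bases shared with another gene were found in 6 members, most in Dnajb9 (11.5% of windows, with Gm6568), Derl1 (8.00%) and Hsp90b1 (7.94%), and in none of the windows of the other 28. Another gene overlaps 10 members on the other strand, Pdia3, Pdia6, Hsp90b1, Manf, Syvn1 and Derl2 among them, and the libraries keep no strand. Of those named, Pdia3, Pdia6 and Derl2 shared no window with another gene.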

How the data were processed

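Per the labels' protocols, cDNA of 5 pooled oocytes was made by Smart-Seq2 and built into unstranded Nextera XT libraries without molecular identifiers, read as 75-base pairs. The submitters' processing notes name the builds mm10 and GRCm38 and the tools STAR, cutadapt, FastQC, DESeq2 and DESeq. Their versions and the gene annotation: not given in the sources used here. Values deposited by the authors are normalized read counts, a signal of reads divided by a size factor (DESeq2 in Partek, per the file headers). Dividing by the value of 1 read (0.899 to 1.11) gave whole reads for 100% of values, within 0.1.

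Groups came from the sample titles. Genes that reached 1 normalized read in 3 or more libraries were compared as log2(value + 1) with limma-trend (limma 3.58.1, R 4.3.3), all 3 KO against all 3 WT libraries, and adjusted by Benjamini-Hochberg over 18762 genes at 0.05. The scale understates changes of low genes. The design named edgeR for raw counts. As the values were normalized, limma was the test, and edgeR 4.0.16 and DESeq2 1.42.0 on the recovered reads were alternatives. Other alternatives were pseudocounts, filters, scaling to total reads, removal of GC and length trends, a replicate block and leaving out each library. The fits were tested on simulated data.

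The members, roles, pathway lists and cell type markers were chosen with earlier results of these data known. All members are named. Values in full are given for the 12 members of smallest p, for pathway genes past the threshold (at most 4 a list) or otherwise the 2 of smallest p, and for Mfn1 and Mfn2. Other PERK-arm genes and the single oocyte and granulosa markers were named after their values were seen. The symbol March6 had become a date in the table and was restored by position. Windows of 75 bases of each longest transcript were aligned to GENCODE M21 with minimap2, allowing 1 mismatch. A count of 0 allows up to 3 reads (0.375 to 0.465 CPM), counting error only.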

Additional observations from a re-analysis of the deposited data

How the results depend on the processing

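No member was called higher except 1 with a filter of 5 CPM in the higher group and 1 with edgeR (Edem3 in each). Members called lower numbered 1 with a pseudocount of 5 (P4hb), 3 without a filter and 3 with the filter of 5 CPM (Atf6, P4hb and Calr in each), 2 with edgeR, 4 with DESeq2, 1 with the GC and length trend removed, and 0 to 1 on leaving out each library. Other pathway genes called higher numbered 1 with the GC and length trend removed and 1 to 4 on leaving out each library. Those called lower numbered 2 with the filter of 5 CPM, 2 with DESeq2, 2 with the GC and length trend removed and 0 to 2 on leaving out each library. Over all genes, 168 were higher with the GC and length trend removed and 172 lower with scaling to total reads, and leaving out each library gave 39 to 459 higher and 30 to 430 lower, over both forms of the filter. With the filter applied again the share called ran from 0.611% without WT replicate 3 to 4.94% without KO replicate 1, and with the genes tested kept it was lowest, 0.378%, without KO replicate 3. The share of calls that were higher was 57.1%, and 73.0% with scaling to total reads and 43.6% with the GC and length trend removed. With the replicate number as a block, 246 genes were higher and 175 lower, and no member was called. Deviations of same-numbered libraries correlated at -0.08, -0.02 and -0.04, so the numbers were not taken to pair the samples. The cause of these changes was not tested. The median of the members stayed below 0 in all 21 other fits, from -0.14 to -0.04. At this depth Xbp1 and Herpud1 were too low for edgeR and DESeq2 to test.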
